A study of Mus musculus with 18 samples.

Results

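The genes described here make, bind and break down hyaluronan, the sugar polymer of the matrix in which cumulus cells, the granulosa cells around an oocyte, become embedded before ovulation. The set was named by symbol as 10 genes: Has1, Has2, Tnfaip6, Ptx3, Cemip, Cd44, Hmmr, Hyal1, Hyal2 and Vcan. Of these, 9 had at least 1 probe set annotated to that gene alone, and together they had 27 of the 34945 probe sets with 1 symbol. A probe set is the group of short probes that gives 1 value for a transcript. Both probe sets of Hyal1, a hyaluronidase, also carried the symbol Naa80, so Hyal1 is not described. Each gene was represented by its probe set with the highest mean, and a gene was tested if that probe set lay above the median of an array on at least 3 of 18 arrays. This left 7 of the 9 genes among 12252 of 18193 in all.

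The study asked how oocytes and estrogen act together on transcripts of cumulus cells from mouse antral follicles. The 18 arrays formed 6 groups of 3: oocyte-free complexes cultured together with oocytes (cocultures) with estrogen, the same cocultures without estrogen, oocyte-free complexes (the oocyte removed, OOX in the labels) with estrogen, oocyte-free complexes without estrogen, intact cumulus-oocyte complexes with estrogen, and intact complexes without estrogen. All 6 groups were cultured, and all were female. Strain, age, estrogen dose and culture time are not given in the sources used here, the labels name no gonadotropin or growth factor, and whether the replicates were separate animals, separate cultures or repeats of 1 culture is not stated. A p-value here thus covers the variation among these samples, part of which could be technical.

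Hyaluronan is made at the cell membrane by synthases that join UDP-glucuronic acid and UDP-N-acetylglucosamine. In cumulus cells of the mouse, Has2 encodes the synthase known for the ovulatory matrix. Tnfaip6 encodes an enzyme that moves heavy chains of inter-alpha-trypsin inhibitor onto hyaluronan, Ptx3 a pentraxin that organises these complexes, and Vcan versican, a large proteoglycan that binds hyaluronan. Cd44 encodes a hyaluronan receptor. Hmmr encodes a hyaluronan-binding protein that also works at the mitotic spindle. Hyal2 encodes a hyaluronidase anchored to the cell surface, and Cemip a protein needed for hyaluronan breakdown in human fibroblasts. Oocyte factors are known to enable this matrix to form when cumulus cells are stimulated.

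Values are log2 RMA values, which allow a gene to be compared between arrays but not with another gene. Array medians lay between 5.51 and 5.71. The arrays fell into 3 series by the array names in the labels (13, 2 and 3 arrays). All intact arrays and all cocultures with estrogen were in the first series, while 2 of the oocyte-free arrays without estrogen were in the third and 1 was in the second. Oocyte-free replicate 3 without estrogen had the narrowest spread of values, its interquartile range being 2.53, where the other arrays had 2.69 to 3.05. Replicate 1 of the oocyte-free group with estrogen carried that name in its title, while its source name and treatment label gave no estrogen. The title was followed, and results that change if the array is moved are given with that value. The 8 granulosa and cumulus markers were all tested, with a mean level of 9.29 to 10.88 on every array, and 4 of 10 oocyte markers lay below the array median on all arrays. Coculture replicate 2 without estrogen stood apart on oocyte markers: Ooep was 7.46 there, against 5.71 and 5.38 on the other coculture arrays, Dppa3 6.76 against 5.72 and 5.84, Nlrp5 6.40 against 5.27 and 5.28, and Zp3 5.86 against 4.56 and 4.65. Results that rest on this array are also given without it. The mean of the 10 oocyte markers reached 5.84 in cocultures without estrogen, 5.62 in oocyte-free complexes without estrogen and 5.28 in intact complexes without estrogen. A raised mean was thus not confined to arrays with oocytes. In whole-sample RNA, fewer cells of a type and less RNA per cell cannot be told apart.

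The sequences before the transcription start of Cemip, Cd44 and Hmmr are shown because these genes changed with the oocyte in every comparison of removal and of addition below. They are the 250 bases upstream of the annotated start in RefSeq on GRCm38.p6, 5′ to 3′ in the direction of the gene. Of the 10 genes, 9 matched a promoter entry and Has2 is named only. Cemip lies on the minus strand at chr7:84086506-84086755, Cd44 on the minus strand at chr2:102901666-102901915 and Hmmr on the minus strand at chr11:40733438-40733687. Capitals mark TATAAA in Cemip and CCAAT, which here reads ATTGG on the other strand, in Hmmr.
Cemip: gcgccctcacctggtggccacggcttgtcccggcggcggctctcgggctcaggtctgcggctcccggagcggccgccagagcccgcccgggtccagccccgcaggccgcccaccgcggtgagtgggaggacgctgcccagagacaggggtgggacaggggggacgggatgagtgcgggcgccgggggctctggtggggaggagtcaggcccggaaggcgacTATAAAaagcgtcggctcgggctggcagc
Cd44: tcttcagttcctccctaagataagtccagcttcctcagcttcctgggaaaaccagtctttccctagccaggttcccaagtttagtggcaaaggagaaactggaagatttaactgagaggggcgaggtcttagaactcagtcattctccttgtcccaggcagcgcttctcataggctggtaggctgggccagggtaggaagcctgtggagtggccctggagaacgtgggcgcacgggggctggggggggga
Hmmr: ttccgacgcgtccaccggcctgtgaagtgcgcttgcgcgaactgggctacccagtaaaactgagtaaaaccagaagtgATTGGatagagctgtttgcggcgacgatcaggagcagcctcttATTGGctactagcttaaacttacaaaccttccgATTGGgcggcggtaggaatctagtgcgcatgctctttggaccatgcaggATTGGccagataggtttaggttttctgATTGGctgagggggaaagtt

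The Cemip sequence held TATAAA from 29 to 24 bases before the start, a motif that 12.4% of the 32851 promoters held in a window of 250 bases. Its share of G and C was 75.2%, against a median of 52.4% over all promoters, and 3.91% of promoters had a share at least as high. The Hmmr sequence held CCAAT 5 times, each on the strand opposite to the gene. At least 1 copy was present in 33.8% of all promoters and at least 5 in 0.213%. The search ran over both strands with letters fixed for each motif: GGTCANNNTGACC (the estrogen response element), AGGTCA (its repeat unit, which overlaps it), TGANTCA (AP-1), TGACGTCA (cAMP response element), TATAAA (the TATA box), the CCAAT box by those letters, and TTTGAA (a cell cycle element). None of the 9 promoters of the set held GGTCANNNTGACC, which 0.0639% of all promoters held. AGGTCA was found in Has1 and Tnfaip6 and in 14.0% of all promoters, TGANTCA in Tnfaip6 and 6.75%, TGACGTCA in Has1 and 1.55%, and TTTGAA in Has1 and 16.0%. CCAAT was found in 5 of the 9 promoters. Cd44 held none of these letters in the window, which says nothing of the factors that bind there.

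Removing the oocyte without estrogen was followed by more transcript of Cemip, Cd44 and Hyal2 and less of Has2 and Hmmr. Thus 5 of the 7 tested genes were called in limma at an adjusted p under 0.05, 3 higher and 2 lower, where 38.7% of the 12252 genes tested were called (18.0% higher and 20.7% lower). The median log2 change was 0.26 over the 7 genes and 0.01 over all tested genes. Cd44 passed the filter on the 3 oocyte-free arrays without estrogen alone, so it had to differ in this comparison and the count over the 7 genes describes these arrays only. Cemip passed on 7 arrays, the 6 oocyte-free ones and 1 coculture, and Has2 on 12, all of them with oocytes. Neither gene was above the array median on the lower side of this comparison, so the filter favoured their calls too.

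Cemip had log2 values of 10.60, 9.97 and 10.18 in oocyte-free complexes, against 5.03, 5.24 and 5.35 in intact complexes. The groups lay far apart, and the intact values were below the array median. The log2 change was 5.04 ± 0.354 (SE, n = 3 per group), 33.0-fold higher, with a limma adjusted p of 8.13e-09. Cd44 followed the same direction with 6.08, 6.16 and 6.04 in oocyte-free complexes, against 4.74, 4.77 and 4.37 in intact complexes. Its change was 1.47 ± 0.138 (2.76-fold higher, limma adjusted p = 2.49e-07). Hyal2 had 10.01, 9.68 and 8.92 in oocyte-free complexes, against 8.69, 8.98 and 8.56 in intact complexes. The lowest oocyte-free array lay below the highest intact one, so the groups overlapped although Hyal2 was called (0.79 ± 0.255, 1.73-fold higher, limma adjusted p = 0.0200).

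Has2, the synthase, had 4.57, 5.43 and 4.68 in oocyte-free complexes, against 6.26, 6.17 and 6.47 in intact complexes. Every oocyte-free array lay below every intact array. The log2 change was -1.41 ± 0.227 (2.65-fold lower, limma adjusted p = 9.89e-05). Hmmr had 5.21, 5.22 and 5.41 in oocyte-free complexes, against 6.90, 6.91 and 6.38 in intact complexes. These groups were also apart, with a change of -1.45 ± 0.222 (2.73-fold lower, limma adjusted p = 5.8e-05). The changes of Has1 (0.26, adjusted p = 0.175) and Vcan (0.21, adjusted p = 0.589) did not pass the limma threshold.

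No array series held both of these groups, so a value within a series could not be had. A term for series was thus estimated through single arrays of other groups. These were coculture replicate 2 without estrogen, which stood apart on oocyte markers, and oocyte-free replicate 3 with estrogen, which stood apart on Cemip (8.06). When the array series entered limma as a term, the log2 changes were 3.71 for Cemip, 1.32 for Cd44, -1.33 for Has2 and -0.95 for Hmmr, all still called (highest adjusted p = 0.0212), while Hyal2 lost its call (0.52, adjusted p = 0.192). Hyal2 also lost its call when oocyte-free replicate 1 or 2 or intact replicate 1 or 3 was left out (changes 0.56 to 0.77, adjusted p 0.0558 to 0.110).

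Markers of theca and stroma did not move as a set without estrogen: Dcn moved with Cemip and Cd44, and Acta2 did not. Of 7 measured, 3 (Col1a1, Col1a2 and Col3a1) lay below the array median on every array and 3 were tested. Of the 3 tested, 1 was called higher and 1 lower, where 18.0% of all tested genes were higher and 20.7% lower. The median log2 change was 0.08 over these 3 and 0.01 over all tested genes. The mean level over the 7 markers was 6.11 to 6.44 in oocyte-free complexes, against 5.73 to 5.82 in intact complexes. Dcn, which encodes the proteoglycan decorin, had 9.05, 9.03 and 9.15 in oocyte-free complexes, against 4.69, 4.54 and 4.57 in intact complexes. Acta2, smooth muscle actin, went the other way, with 9.73, 9.64 and 10.51 in oocyte-free complexes, against 11.92, 11.74 and 11.94 in intact complexes. Cyp17a1, the theca enzyme of androgen synthesis, lay between 4.65 and 5.91 in oocyte-free complexes, against 4.73 to 5.07 in intact complexes. The 8 granulosa and cumulus markers averaged 9.29 to 9.43 in oocyte-free complexes, against 9.97 to 10.14 in intact complexes. Of these 8, 5 were called lower and 2 higher, where 20.7% of all tested genes were lower and 18.0% higher. Of the 7 endothelial and blood markers, 5 lay below the array median on all arrays. In cocultures without estrogen the theca and stroma mean was 5.83 to 6.07 and Dcn had 5.17, 4.73 and 4.36. The part of these cell types in the Cemip and Cd44 results was not tested.

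With estrogen, oocyte removal was again followed by higher Cemip and Cd44 and lower Has2 and Hmmr, and here Vcan was lower too. Of the 7 tested genes, 5 were called, 2 higher and 3 lower, where 30.2% of all tested genes were called (12.9% higher and 17.3% lower). The median log2 change was 0.02 over the 7 genes and -0.05 over all tested genes. Has2 and Cemip were above the array median only on the higher side of this comparison, so the filter favoured their calls in this count. Cd44 lay below the array median on both sides here, having passed the filter on the oocyte-free arrays without estrogen alone. The changes of Hyal2 (0.36, limma adjusted p = 0.319) and Has1 (0.02, adjusted p = 0.949) did not pass.

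Vcan had 5.59, 6.03 and 6.07 in oocyte-free complexes with estrogen, against 7.04, 7.65 and 7.95 in intact complexes with estrogen. The groups were apart by nearly a whole log2 unit, and the change was -1.65 ± 0.272 (3.14-fold lower, limma adjusted p = 0.000154). Cemip had 6.16, 6.20 and 8.06 in oocyte-free complexes with estrogen, against 5.02, 4.92 and 5.10 in intact complexes with estrogen. The third oocyte-free array stood well above the other two, and the change of 1.79 ± 0.354 (3.47-fold higher, limma adjusted p = 0.000833) depended on it in size. Without that array the change was 1.17 (adjusted p = 0.000573). Dcn was high on the same array, with 7.47, 7.74 and 8.61 in oocyte-free complexes with estrogen, against 4.51, 4.66 and 4.49 in intact complexes with estrogen. The mean of the 7 theca and stroma markers was 6.16 to 6.24 in these oocyte-free complexes, against 5.27 to 5.39 in the intact ones, and here Acta2 was higher too (11.99, 11.72 and 10.79 against 8.78, 8.19 and 8.60). Their part in the result was not tested.

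Cd44 had 5.43, 5.35 and 5.52 in oocyte-free complexes with estrogen, against 4.47, 4.58 and 4.65 in intact complexes with estrogen, a change of 0.87 ± 0.138 (1.82-fold higher, limma adjusted p = 0.000115). Has2 had 4.89, 4.47 and 4.61 in oocyte-free complexes with estrogen, against 6.01, 5.62 and 5.66 in intact complexes with estrogen. Its change was -1.11 ± 0.227 (2.15-fold lower, limma adjusted p = 0.00118). The groups did not overlap for Cd44, for Has2 or for Hmmr. Hmmr had 6.35, 5.98 and 5.47 in oocyte-free complexes with estrogen, against 6.74, 6.57 and 7.32 in intact complexes with estrogen (-0.94 ± 0.222, 1.92-fold lower, limma adjusted p = 0.00349). Within the first array series, which held 2 oocyte-free arrays and all 3 intact arrays of this comparison, the changes were 1.17 for Cemip, 0.82 for Cd44, -1.08 for Has2, -0.71 for Hmmr and -1.74 for Vcan, all called. These oocyte-free arrays included the array of conflicting labels. With the array of conflicting labels moved to the group without estrogen, the Cemip change was 2.12 and lost its call (adjusted p = 0.0854).

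**Figure D1:**
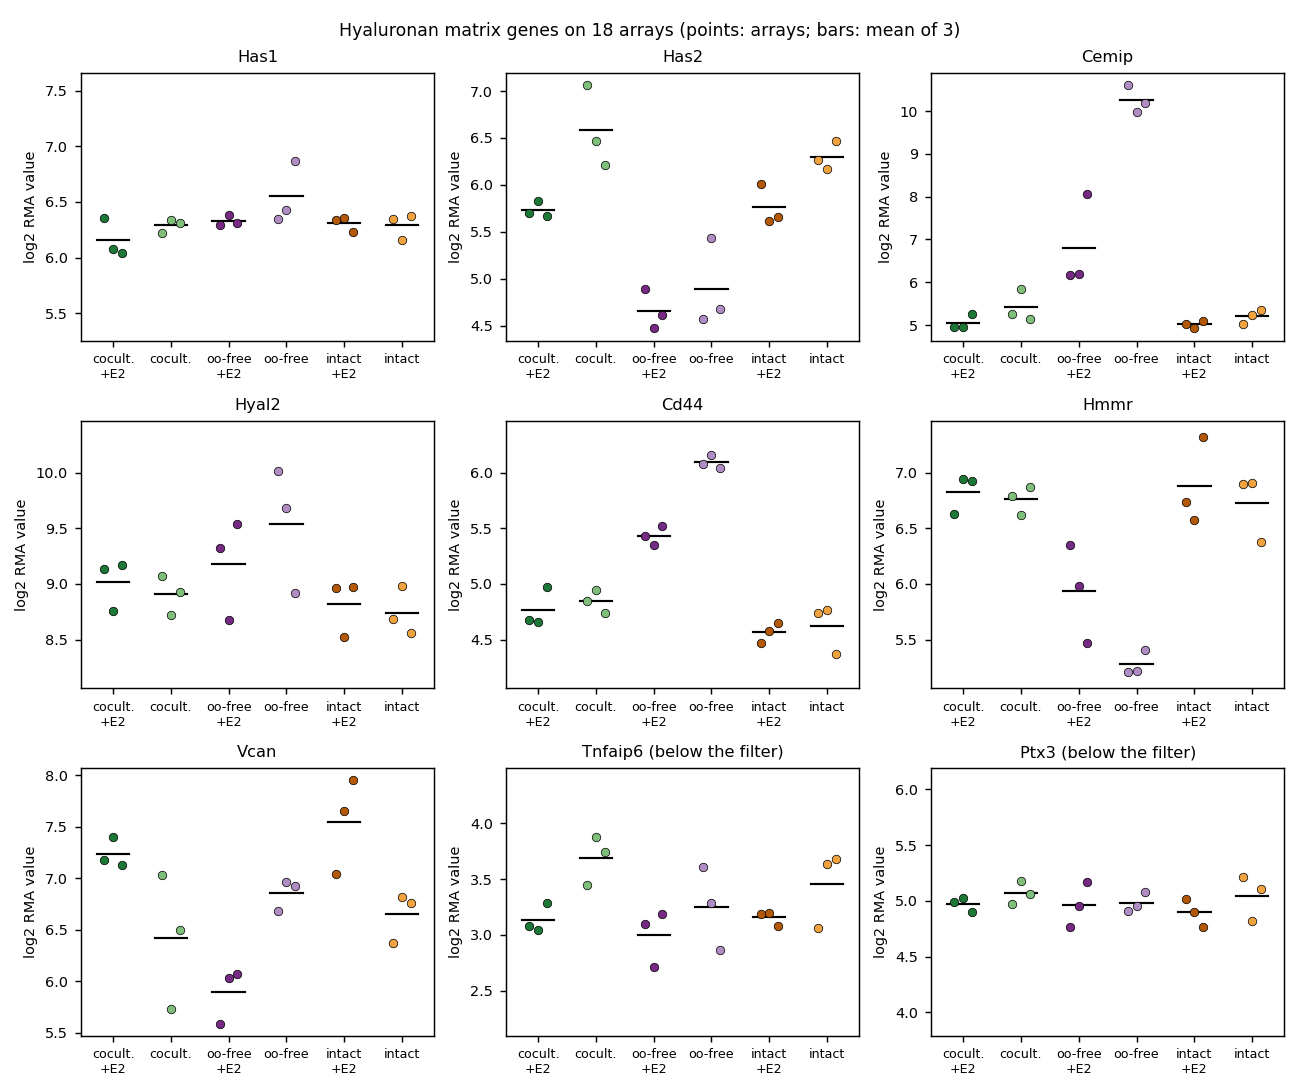
Log2 RMA values of the 9 measured hyaluronan genes on each of 18 arrays (points), with the mean of 3 arrays per group (bars) and the 6 groups along the x axis (cocult., cocultures; oo-free, oocyte-free complexes; +E2, with estrogen). Cemip reached 9.97 to 10.60 on the oocyte-free arrays without estrogen and at most 5.84 on any array with oocytes, while Tnfaip6 and Ptx3 stayed below the array median on every array.

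Coculture with oocytes, set against oocyte-free complexes, asks whether oocytes outside the complex are followed by the opposite changes. Without estrogen, Has2 and Hmmr were higher and Cemip and Cd44 lower in cocultures. These were 4 of the 7 tested genes, 2 in each direction, where 33.2% of all tested genes were called (19.8% higher and 13.4% lower). The medians were -0.44 over the 7 genes and 0.02 over all tested genes. This comparison shares its oocyte-free arrays with the removal comparison. Cd44 passed the filter on these oocyte-free arrays alone, so its call adds nothing to the count. Has2 passed only on arrays with oocytes and Cemip mostly on oocyte-free arrays, so the filter favoured both calls.

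Has2 had 7.06, 6.47 and 6.21 in cocultures, against 4.57, 5.43 and 4.68 in oocyte-free complexes. The change was 1.69 ± 0.227 (3.22-fold higher, limma adjusted p = 1.95e-05), and the groups did not overlap. Cemip had 5.26, 5.84 and 5.15 in cocultures, against 10.60, 9.97 and 10.18 in oocyte-free complexes (-4.83 ± 0.354, 28.5-fold lower, limma adjusted p = 1.76e-08). Cd44 had 4.85, 4.95 and 4.74 in cocultures, against 6.08, 6.16 and 6.04 in oocyte-free complexes (-1.25 ± 0.138, 2.37-fold lower, limma adjusted p = 2.2e-06). The groups were apart for both genes. Hmmr had 6.79, 6.62 and 6.87 in cocultures, against 5.21, 5.22 and 5.41 in oocyte-free complexes (1.48 ± 0.222, 2.79-fold higher, limma adjusted p = 5.9e-05).

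The second array series held 1 array of each of these groups. On these, coculture replicate 2 and oocyte-free replicate 3, Cemip was 5.84 against 10.18, Cd44 4.95 against 6.04, Has2 6.47 against 4.68 and Hmmr 6.62 against 5.41. The directions within that pair of arrays were those of the whole comparison. The pair has no replicates, and this coculture array is the one that stood apart on oocyte markers. Without it the changes were -5.04 for Cemip, -1.30 for Cd44, 1.74 for Has2 and 1.55 for Hmmr, all called in limma (highest adjusted p = 0.000192). The changes of Hyal2 (-0.63, limma adjusted p = 0.0677), Vcan (-0.44, adjusted p = 0.242) and Has1 (-0.26, adjusted p = 0.186) did not pass. Hyal2 was called at -0.94 without oocyte-free replicate 3 (adjusted p = 0.00525), and at -0.63 without replicate 2 of the oocyte-free group with estrogen (adjusted p = 0.0448). Vcan was called at -0.74 without coculture replicate 1 (adjusted p = 0.0451), and its change was -0.09 without coculture replicate 2.

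With estrogen, 5 of the 7 genes were called in cocultures against oocyte-free complexes, 3 higher and 2 lower, where 24.6% of all tested genes were called (14.2% higher and 10.4% lower). The medians were -0.16 over the 7 genes and 0.03 over all tested genes. Here too Has2 and Cemip were above the array median only on their higher side, so the filter favoured their calls in this count. Cd44 again lay below the array median on both sides. Vcan had 7.18, 7.40 and 7.13 in cocultures with estrogen, against 5.59, 6.03 and 6.07 in oocyte-free complexes with estrogen. The groups were apart by more than 1 log2 unit, and the change was 1.34 ± 0.272 (2.53-fold higher, limma adjusted p = 0.00136).

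Has2 had 5.70, 5.83 and 5.67 in cocultures with estrogen, against 4.89, 4.47 and 4.61 in oocyte-free complexes with estrogen (1.08 ± 0.227, 2.11-fold higher, limma adjusted p = 0.00191). Hmmr had 6.63, 6.94 and 6.92 in cocultures with estrogen, against 6.35, 5.98 and 5.47 in oocyte-free complexes with estrogen (0.90 ± 0.222, 1.86-fold higher, limma adjusted p = 0.00627). Neither gene had overlapping groups. Cemip had 4.95, 4.95 and 5.26 in cocultures with estrogen, against 6.16, 6.20 and 8.06 in oocyte-free complexes with estrogen (-1.75 ± 0.354, 3.37-fold lower, limma adjusted p = 0.00133). Cd44 had 4.68, 4.66 and 4.97 in cocultures with estrogen, against 5.43, 5.35 and 5.52 in oocyte-free complexes with estrogen (-0.66 ± 0.138, 1.58-fold lower, limma adjusted p = 0.00170). Every coculture array lay below every oocyte-free array for both.

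Without oocyte-free replicate 3 with estrogen the Cemip change was -1.13 (limma adjusted p = 0.000999), and with the array of conflicting labels moved it was -2.08 and not called (adjusted p = 0.106). Within the first array series the changes were 1.05 for Has2, 0.67 for Hmmr (adjusted p = 0.0421), 1.43 for Vcan, -1.13 for Cemip and -0.62 for Cd44, all called. The oocyte-free arrays of that series included the array of conflicting labels.

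Cocultures were also set against intact complexes. None of the 7 genes was called with or without estrogen in limma, and none had an unadjusted p under 0.05. Over all tested genes, 0% were called with estrogen and 0.00816% without, with 346 and 733 genes at an unadjusted p under 0.05. The 95% intervals bound the differences that remain possible. Cemip differed by 0.04 (-0.71 to 0.79) with estrogen and 0.21 (-0.54 to 0.96) without, and Has2 by -0.03 (-0.51 to 0.45) with estrogen and 0.28 (-0.20 to 0.76) without. Cd44 differed by 0.20 (-0.09 to 0.49) with estrogen and 0.22 (-0.07 to 0.51) without, and Hmmr by -0.05 (-0.51 to 0.42) with estrogen and 0.03 (-0.44 to 0.50) without. With estrogen, each coculture array of Cd44 lay above each intact array (4.68, 4.66 and 4.97 against 4.47, 4.58 and 4.65), although the difference did not pass the test. Vcan differed by -0.31 (-0.88 to 0.26) with estrogen and -0.23 (-0.80 to 0.34) without. Leaving out coculture replicate 2 without estrogen, the differences without estrogen were 0.00 for Cemip, 0.33 for Has2 and 0.12 for Vcan, and none was called.

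**Figure D2:**
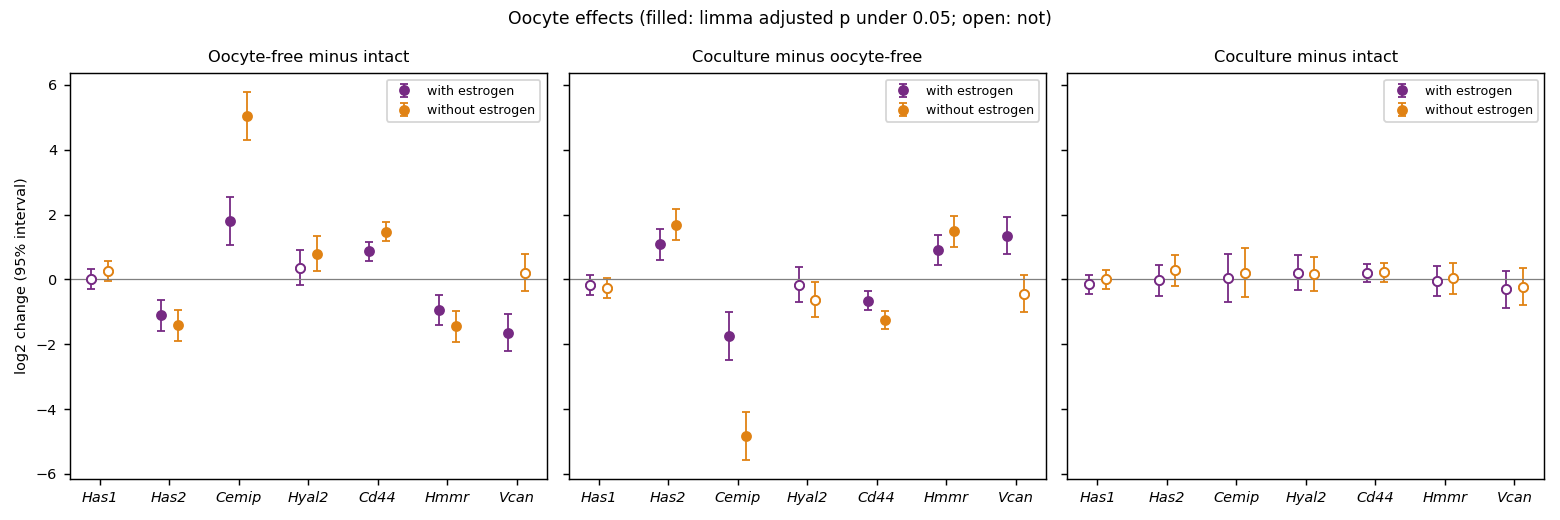
Log2 changes (y axis, with 95% intervals from limma) of the 7 tested hyaluronan genes for oocyte removal, for added oocytes and for cocultures against intact complexes, with and without estrogen; filled points passed an adjusted p of 0.05. Cemip changed by 5.04 on removal and by -4.83 with added oocytes, both without estrogen, and no filled point stands in the panel of cocultures against intact complexes.

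Estrogen was then compared within each kind of culture. In oocyte-free complexes it was followed by lower Cemip, Cd44 and Vcan, 3 of the 7 tested genes and all lower, where 9.64% of all tested genes were called (6.02% higher and 3.62% lower). The medians were -0.36 over the 7 genes and 0.00 over all tested genes. Cd44 had passed the filter through the oocyte-free arrays without estrogen alone, the higher side here, so its call adds nothing to the count. Cemip had 6.16, 6.20 and 8.06 with estrogen, against 10.60, 9.97 and 10.18 without (-3.44 ± 0.354, 10.9-fold lower, limma adjusted p = 1.14e-05). The groups were apart, although Cemip with estrogen still lay above every array with oocytes.

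Cd44 in oocyte-free complexes had 5.43, 5.35 and 5.52 with estrogen, against 6.08, 6.16 and 6.04 without (-0.66 ± 0.138, 1.58-fold lower, limma adjusted p = 0.00555). Vcan had 5.59, 6.03 and 6.07 with estrogen, against 6.68, 6.96 and 6.93 without (-0.96 ± 0.272, 1.95-fold lower, limma adjusted p = 0.0329). Neither gene had overlapping groups. Hmmr had 6.35, 5.98 and 5.47 with estrogen, against 5.21, 5.22 and 5.41 without, separate groups whose difference of 0.65 did not pass (adjusted p = 0.0725). Among arrays left out singly, it passed only without oocyte-free replicate 3 with estrogen (0.88, adjusted p = 0.0133).

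All calls of estrogen in oocyte-free complexes depended on the placement of the array with conflicting labels. With it moved to the group without estrogen, none of the 12252 tested genes was called. The changes were then -2.10 for Cemip (limma adjusted p = 0.581), -0.49 for Cd44 (adjusted p = 0.593) and -0.49 for Vcan (adjusted p = 0.792). Cemip and Cd44 kept their calls with each array left out in turn, that one included (highest limma adjusted p = 0.000124 and 0.0274). With the array series as a term, Cemip (-2.61, adjusted p = 9.14e-06) and Vcan (-1.22, adjusted p = 0.0365) stayed called and Cd44 did not (-0.57, adjusted p = 0.0564). In the third series, which held oocyte-free replicate 3 with estrogen and replicates 1 and 2 without, Cemip was 8.06 against 10.60 and 9.97, Cd44 5.52 against 6.08 and 6.16, and Vcan 6.07 against 6.68 and 6.96. Vcan lost its call when any of 4 arrays was left out: oocyte-free replicate 1 or 2 with estrogen, or replicate 2 or 3 without (changes -1.03 to -0.81, adjusted p 0.0542 to 0.160).

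In cocultures, estrogen was followed by lower Has2, the only call among the 7 genes, where 4.65% of all tested genes were called (2.32% higher and 2.33% lower). Has2 had 5.70, 5.83 and 5.67 with estrogen, against 7.06, 6.47 and 6.21 without (-0.85 ± 0.227, 1.80-fold lower, limma adjusted p = 0.0382). The groups did not overlap, but the call was lost when any of 6 arrays was left out, among them coculture replicate 1 without estrogen (-0.61, adjusted p = 0.170). The other 5 were coculture replicate 2 without estrogen (-0.90), coculture replicates 1, 2 and 3 with estrogen (-0.83, -0.89 and -0.82) and intact replicate 3 with estrogen (-0.85). Vcan had 7.18, 7.40 and 7.13 with estrogen, against 7.03, 5.73 and 6.50 without, a difference of 0.82 that did not pass (adjusted p = 0.112). Leaving out coculture replicate 1 without estrogen it passed (1.12, adjusted p = 0.0201), and leaving out replicate 2 it was 0.47 (adjusted p = 0.481).

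In intact complexes, 0 of the 7 genes were called for estrogen in limma, where 5.79% of all tested genes were called (3.45% higher and 2.33% lower). At an unadjusted p under 0.05 there were 2, Vcan and Has2, and 2297 genes in all. Vcan had 7.04, 7.65 and 7.95 with estrogen, against 6.37, 6.82 and 6.76 without, a difference of 0.90 ± 0.272 (adjusted p = 0.0630) with no overlap. Has2 had 6.01, 5.62 and 5.66 with estrogen, against 6.26, 6.17 and 6.47 without, a difference of -0.54 ± 0.227 (adjusted p = 0.202), also with no overlap. The Vcan difference passed in several other settings: within the first array series (0.90, adjusted p = 0.0201), and without coculture replicate 1 (adjusted p = 0.0327), coculture replicate 2 (adjusted p = 0.0205) or intact replicate 1 with estrogen (1.15, adjusted p = 0.0286). Over all arrays left out singly it ranged from 0.69 to 1.15, with a limma adjusted p of up to 0.305. It did not pass on Vcan probe sets 1421694_a_at (0.25, adjusted p = 0.662) and 1427257_at (0.65, adjusted p = 0.166).

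The estrogen effect itself was compared between kinds of culture by interaction terms. It was lower in oocyte-free than in intact complexes for Cemip (-3.25 ± 0.501, limma adjusted p = 0.00109) and for Vcan (-1.86 ± 0.384, adjusted p = 0.00983), where 3.21% of all tested genes had such a call (1.79% higher and 1.42% lower). In cocultures it was higher than in complexes without oocytes for both genes, by 3.08 ± 0.501 for Cemip (adjusted p = 0.00186) and 1.78 ± 0.384 for Vcan (adjusted p = 0.0140), where 2.78% had a call (0.890% higher and 1.89% lower). Since Cemip was already below the array median on nearly all arrays with oocytes, a fall with estrogen could hardly show there. For Cd44 the interactions were -0.60 (adjusted p = 0.116) and 0.58 (adjusted p = 0.149). With the array of conflicting labels moved, no interaction of the set was called.

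**Figure D3:**
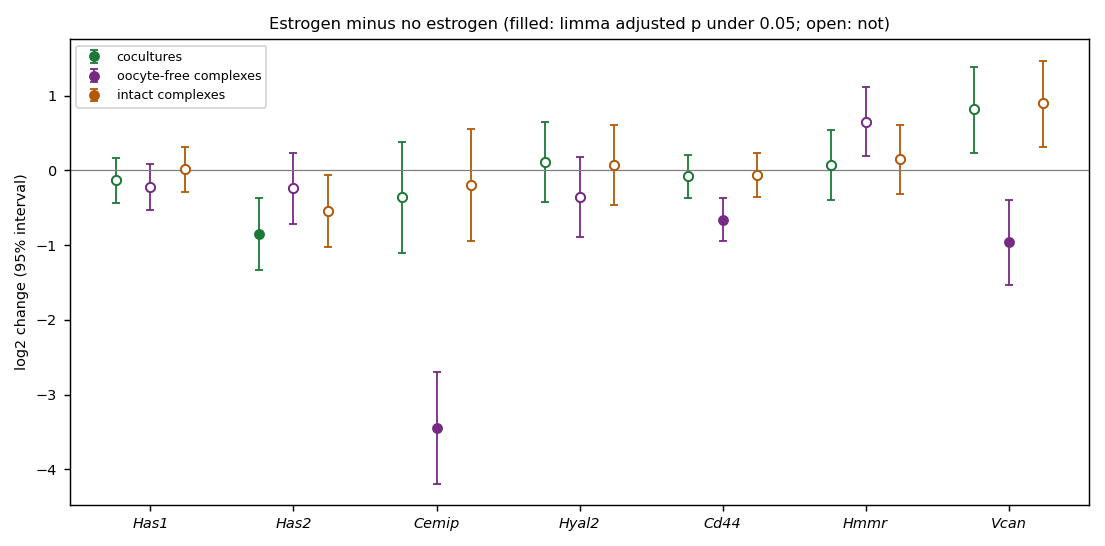
Log2 change with estrogen minus without (y axis, with 95% limma intervals) of the 7 tested genes in cocultures, oocyte-free complexes and intact complexes; filled points passed an adjusted p of 0.05. Cemip (-3.44), Cd44 (-0.66) and Vcan (-0.96) have filled points in oocyte-free complexes, and Has2 (-0.85) in cocultures.

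Ordered by group mean, Has2 was 6.58 ± 0.436 in cocultures, 6.30 ± 0.154 in intact complexes, 5.76 ± 0.215 in intact complexes with estrogen, 5.73 ± 0.0850 in cocultures with estrogen, 4.89 ± 0.468 in oocyte-free complexes and 4.66 ± 0.214 in oocyte-free complexes with estrogen (log2 mean ± SD, n = 3). In that order the arrays of neighbouring groups overlapped except between intact complexes with and without estrogen and between cocultures with estrogen and oocyte-free complexes. Cd44 was 6.09 ± 0.0611 in oocyte-free complexes and 5.43 ± 0.0850 in oocyte-free complexes with estrogen, each apart from the next group, and 4.57 to 4.85 in the 4 groups with oocytes. Cemip had the same split, with 10.25 ± 0.321, 6.81 ± 1.09 and then 5.01 to 5.42.

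Hmmr ran the other way, with means of 6.73 to 6.88 in the 4 groups with oocytes, 5.93 ± 0.442 in oocyte-free complexes with estrogen and 5.28 ± 0.113 in oocyte-free complexes, each of the last 2 apart from its neighbours. Vcan had another order: 7.55 in intact complexes with estrogen, 7.24 in cocultures with estrogen, 6.86 in oocyte-free complexes, 6.65 in intact complexes, 6.42 in cocultures and 5.90 in oocyte-free complexes with estrogen. Its neighbouring groups overlapped except between cocultures with estrogen and oocyte-free complexes. Hyal2 means lay between 8.74 and 9.54, and all of its neighbours overlapped.

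Has1, the other synthase measured, had a single probe set above the median of all 18 arrays and means of 6.16 to 6.55 over the 6 groups. Without estrogen its arrays in cocultures (6.22, 6.34 and 6.31) lay just below those in oocyte-free complexes (6.35, 6.43 and 6.87), a difference that did not pass. Tnfaip6 lay between 2.71 and 3.88 on all arrays and Ptx3 between 4.77 and 5.21 on its brighter probe set, below the array median everywhere. In a limma fit of all 18193 genes neither was called in any comparison. The lowest adjusted p of the pair was 0.135, for Tnfaip6 in cocultures (3.45, 3.88 and 3.74) against oocyte-free complexes (3.61, 3.29 and 2.86) without estrogen, and its change of 0.44 is one of values below the array median. Low values are compressed on these arrays, so folds of dim genes are understated.

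Other probe sets of a gene did not always behave as the one that represents it. For Cemip, 1429987_at carried the whole result. The other 2, 1421645_at and 1441478_at, were below the filter, with 5.24, 5.24 and 5.52 in oocyte-free complexes against 5.41, 5.37 and 5.55 in intact complexes for 1421645_at, and 4.54, 4.35 and 4.90 against 3.94, 4.33 and 4.26 for 1441478_at. For Cd44, 1423760_at was the only one of 4 that passed, and its result comes from that probe set. The others lay below the array median on all arrays. Their means in oocyte-free against intact complexes without estrogen were 4.07 against 4.18 (1452483_a_at), 3.60 against 3.14 (1434376_at) and 2.80 against 2.88 (1443265_at). Has2 had 2 probe sets above the filter: on 1449169_at the removal change without estrogen was -0.39 and did not pass (limma adjusted p = 0.0982), while the change with added oocytes did (0.69, adjusted p = 0.00681). With estrogen, neither removal (-0.24, adjusted p = 0.355) nor added oocytes (0.50, adjusted p = 0.0532) passed on it. Estrogen in cocultures did not pass either (-0.41, adjusted p = 0.272). The signs were those of 1418678_at, on which these Has2 calls rest.

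For Hmmr, 2 of 5 probe sets passed, and on 1427541_x_at the removal change was -0.51 with estrogen, which did not pass (limma adjusted p = 0.126), and -1.02 without (adjusted p = 0.00277). With added oocytes this probe set rose by 0.80 with estrogen (adjusted p = 0.0216) and 0.78 without (adjusted p = 0.0188). For Vcan, 3 of 8 passed. All 3 fell on removal with estrogen, by 1.65 on 1427256_at, 1.44 on 1421694_a_at and 1.34 on 1427257_at. Without estrogen, 1421694_a_at alone fell on removal (-0.69, adjusted p = 0.0373), with 6.01, 6.14 and 6.07 in oocyte-free complexes against 7.00, 6.73 and 6.57 in intact complexes. The interaction of estrogen with removal was called on 1427257_at (-1.45, adjusted p = 0.0289) and not on 1421694_a_at (-0.75, adjusted p = 0.380). The interaction with added oocytes was called on neither (1.18, adjusted p = 0.0987, and 1.02, adjusted p = 0.187), nor was estrogen in oocyte-free complexes (-0.80, adjusted p = 0.0521, and -0.50, adjusted p = 0.217), so those 2 Vcan calls rest on 1427256_at. The annotation used here does not say which versican isoforms each probe set reads.

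**Figure D4:**
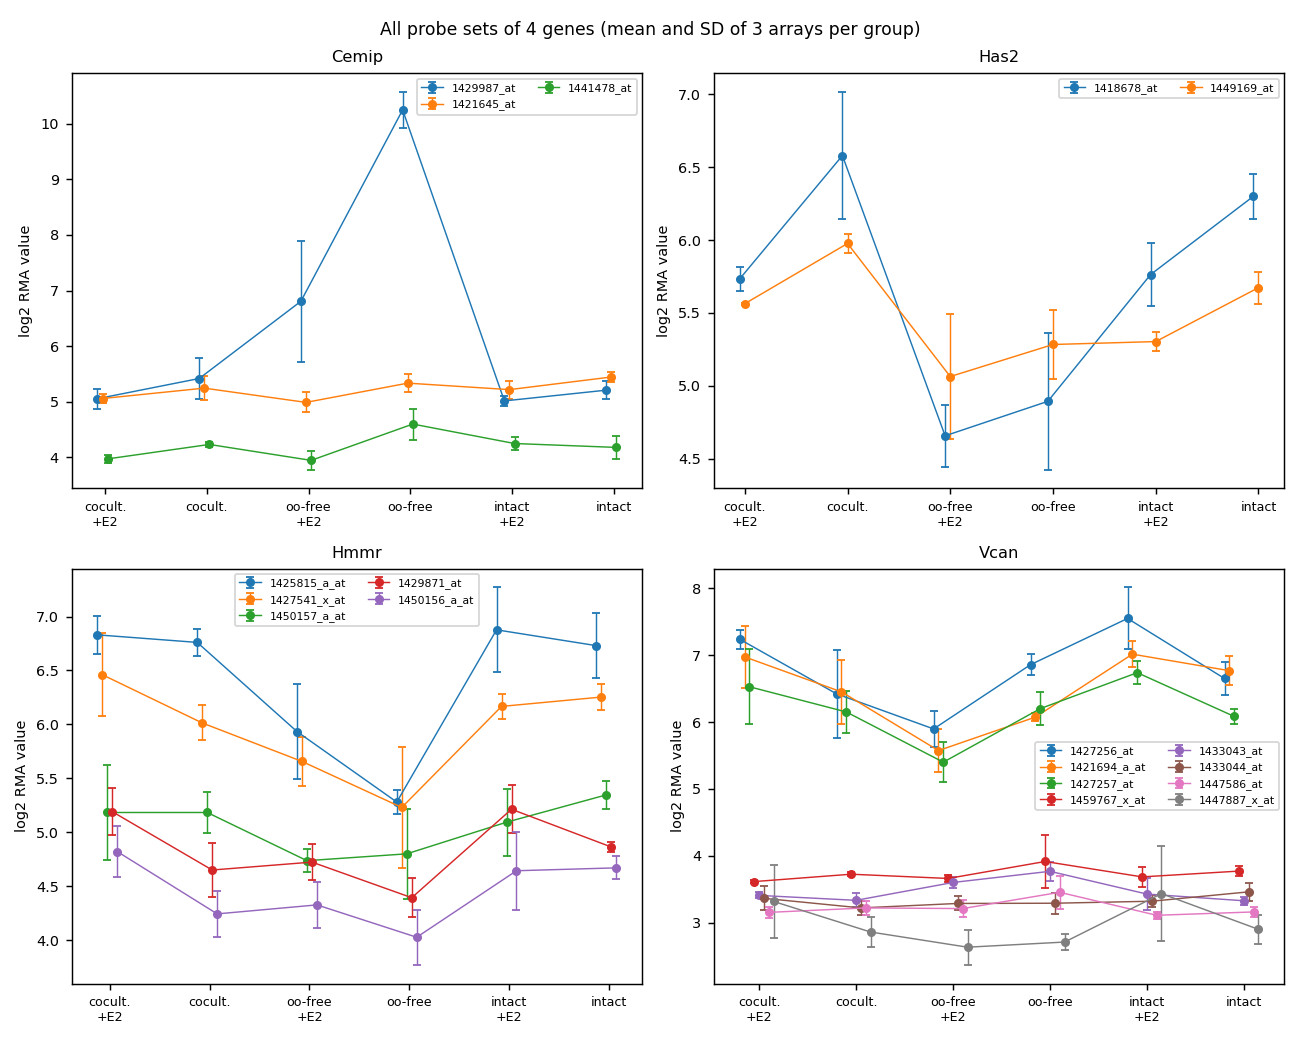
Mean log2 RMA value with SD over 3 arrays for every probe set of Cemip, Has2, Hmmr and Vcan in the 6 groups along the x axis (cocult., cocultures; oo-free, oocyte-free complexes; +E2, with estrogen), lines joining the points of a probe set only to guide the eye. Cemip 1429987_at alone stands out in oocyte-free complexes, and the 3 brighter Vcan probe sets share a low point in oocyte-free complexes with estrogen.

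Genes around the set were described by lists. The 7 enzymes that make the UDP-sugar precursors were all tested. On oocyte removal without estrogen 4 fell and 1 rose, where 20.7% of all tested genes fell and 18.0% rose, with a median of -0.70 against 0.01 for all tested genes. Gnpnat1, which acetylates glucosamine 6-phosphate, had 7.17, 6.79 and 6.69 in oocyte-free complexes, against 8.56, 8.88 and 8.75 in intact complexes (-1.85 ± 0.187, 3.60-fold lower, limma adjusted p = 5.7e-07). Gfpt2 (-0.83) and Gfpt1 (-0.78), the first enzymes of the hexosamine pathway, fell too, as did Uap1 (-0.70), while Ugdh, which makes UDP-glucuronic acid, rose (0.53, adjusted p = 0.0463). Uap1 and Ugdh are named after their values were seen. With added oocytes, 4 of the 7 rose with estrogen and 5 without, and none fell, where 14.2% of all tested genes rose with estrogen and 19.8% without. Of the 4, Uap1 was no longer called with the array of conflicting labels moved (0.65, adjusted p = 0.0670).

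Of 16 other genes that bind or link hyaluronan, 10 were tested, and on removal without estrogen 3 fell and none rose (median -0.18), a share near the 20.7% of all tested genes that fell. These were Layn (-1.28), a hyaluronan receptor, Itih5 (-1.27), a heavy chain of the inter-alpha-trypsin family, and Bcan (-0.70), brevican, whose call was lost with the array of conflicting labels moved (-0.64, adjusted p = 0.0598). The removal change of Itih5 had opposite signs with and without estrogen. It had 11.39, 11.23 and 10.85 in oocyte-free complexes with estrogen, against 10.45, 9.90 and 10.15 in intact complexes with estrogen (0.99 ± 0.194, limma adjusted p = 0.000797). Without estrogen it had 10.24, 9.89 and 9.54 in oocyte-free complexes, against 11.08, 11.27 and 11.12 in intact complexes. The interaction of estrogen with removal was 2.26 ± 0.275 for Itih5 (adjusted p = 0.000113). Estrogen in intact complexes was followed by lower Itih5 (-0.99, adjusted p = 0.00407) and Layn (-0.89, adjusted p = 0.0109), 2 of the 10, where 2.33% of all tested genes fell. With the array of conflicting labels moved, Itih5 was not called for removal with estrogen (0.87, adjusted p = 0.0867), for the interaction (1.76, adjusted p = 0.118) or for estrogen in intact complexes (-0.99, adjusted p = 0.107).

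Of 7 other genes of synthesis and breakdown, 6 were on the array and 4 were tested. On removal without estrogen Cemip2, which encodes a cell-surface hyaluronidase, fell (-0.98, limma adjusted p = 0.00365) and Hexa, a lysosomal hexosaminidase subunit, rose (0.69, adjusted p = 0.000845). Over all tested genes, 20.7% fell and 18.0% rose. Cemip2 thus moved opposite to Cemip. Has3 was below the filter, as was Hapln1, a link protein.

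Of 6 proteases known to cut versican, 4 were tested and 3 rose on removal without estrogen (median 1.02): Adamts1 (1.36), Adamts9 (1.14) and Adamts4 (0.90), where 18.0% of all tested genes rose. With estrogen none of the 4 was called higher and Adamts9 fell, where 12.9% of all tested genes rose and 17.3% fell. Adamts9 had 6.59, 5.90 and 6.50 in oocyte-free complexes with estrogen, against 8.03, 8.38 and 8.10 in intact complexes with estrogen (-1.84 ± 0.225, 3.58-fold lower, limma adjusted p = 6.57e-06). Without estrogen it had 8.29, 8.12 and 8.48 in oocyte-free complexes, against 7.16, 7.26 and 7.05 in intact complexes, so the sign of the removal change differed, with an interaction of -2.98 ± 0.318 (adjusted p = 3.01e-05). Estrogen in intact complexes was followed by higher Adamts9 (1.01, adjusted p = 0.0103). With the array of conflicting labels moved, Adamts9 kept its call for removal with estrogen (-1.97, adjusted p = 0.00193) and for the interaction (-2.68, adjusted p = 0.0215), and lost it for removal without estrogen (0.71, adjusted p = 0.117) and for estrogen in intact complexes (1.01, adjusted p = 0.160).

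The prostaglandin genes of cumulus expansion were 3, of which 2 were tested, and Ptgs2 lay at 3.30 to 3.69 over all 18 arrays. Ptges, a prostaglandin E synthase, had 8.00, 7.95 and 8.06 in oocyte-free complexes, against 8.99, 8.96 and 8.81 in intact complexes without estrogen (-0.92, limma adjusted p = 0.00188). Ptger2, a prostaglandin E receptor, was lower with estrogen in all 3 kinds of culture. It had 5.15, 5.91 and 5.30 in cocultures with estrogen, against 7.85, 7.68 and 7.87 without (-2.35 ± 0.230, 5.09-fold lower, limma adjusted p = 4.61e-06), and the change was -0.91 where the oocyte was missing and -1.16 in intact complexes. The Ptger2 change in oocyte-free complexes was -0.61 with the array of conflicting labels moved, which was not called (adjusted p = 0.689).

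Since the Hmmr product also acts in mitosis, 10 mitotic spindle and proliferation genes were listed, of which 9 were on the array and tested. All 9 fell on removal, with a median of -1.75 with estrogen and -2.60 without, and all 9 rose with added oocytes. Over all tested genes, 17.3% fell on removal with estrogen and 20.7% without, and 14.2% rose with added oocytes with estrogen and 19.8% without. Cdc20 was not called for added oocytes with estrogen once the array of conflicting labels was moved (0.94, adjusted p = 0.0603). Mki67 (-3.81), Birc5 (-2.86) and Top2a (-2.78) fell most on removal without estrogen. In oocyte-free complexes 7 of the 9 were called higher with estrogen, where 6.02% of all tested genes were, and none of these calls was kept with the array of conflicting labels moved. In cocultures and in intact complexes none of the 9 was called for estrogen in limma, although Bub1 had 7.35, 7.83 and 7.70 in intact complexes with estrogen, against 6.59, 7.02 and 7.12 without (0.72, adjusted p = 0.0997). Bub1 is named after its values were seen. The Hmmr changes lie in the direction of this list in every comparison of removal and addition. Whether they reflect fewer dividing cells was not tested.

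**Figure D5:**
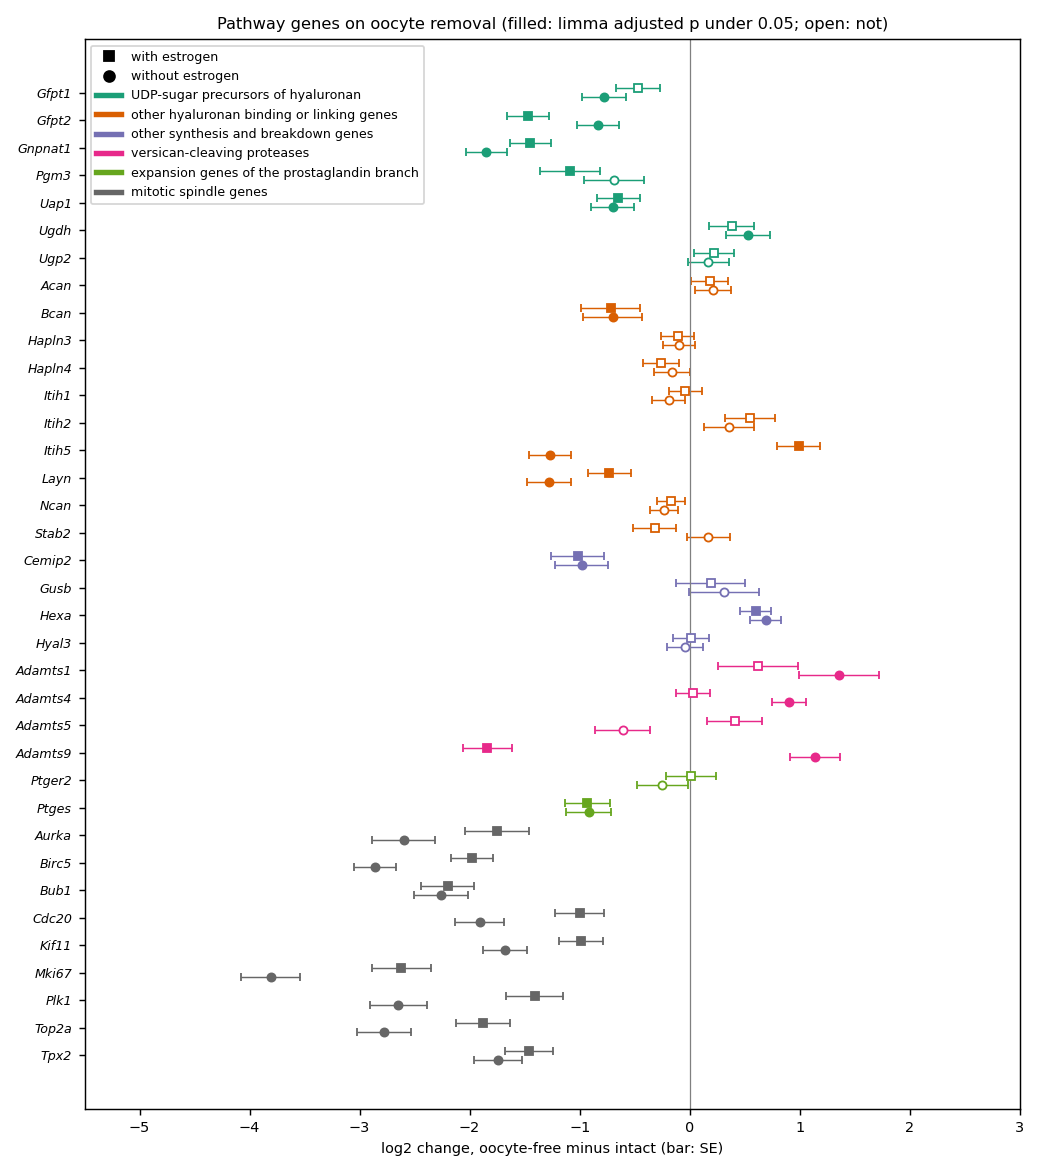
Log2 change on oocyte removal (x axis, oocyte-free minus intact, bars SE) of the tested pathway genes, coloured by list, with estrogen as squares and without as circles; filled symbols passed a limma adjusted p of 0.05. The 9 mitotic genes lie left of 0 under both conditions, while Itih5 and Adamts9 lie on opposite sides of 0 with and without estrogen.

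Over the 18 arrays, the genes whose log2 values ran most like each member were found by Pearson correlation, as a description of arrays that share groups and a common normalization. Bicc1 (r = 0.983), Rab3b (0.977) and Plat (0.973), the tissue plasminogen activator, ran most like Cemip. Dusp4 (0.969), Ccdc9 (0.964) and Stat3 (0.962) ran most like Cd44. For Hmmr they were Prc1 (0.968), Kif11 (0.964) and Ube2c (0.954), all genes of cell division. For Has2 they were Kif26b (0.955), Gdnf (0.944) and Mfsd9 (0.930), and for Hyal2 Gaa (0.949), Ciao3 (0.945) and Tdrd7 (0.939). The leading values were lower for Has1 (Cetn1 0.898, Rgs9 0.892 and Gsdma2 0.888) and for Vcan (Xpo1 0.841, Cobl 0.822 and Kif24 0.802). Between members, Cemip and Cd44 ran together (0.943) and opposite to Hmmr (-0.926 and -0.879), Has2 ran with Hmmr (0.687), and Vcan had no correlation with another member beyond 0.320 in size.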

How the data were processed

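RNA of cumulus cells was amplified in 2 rounds from 20 ng of total RNA and hybridised to Affymetrix mouse expression arrays, per the labels' protocols. The deposited log2 values were made by the authors with RMA, for which the submitters' processing notes name Affymetrix Expression Console 1.1, and are rounded to 2 decimals. Since RMA makes the arrays alike in distribution, a rise or fall shared by most transcripts is lost. No detection calls were used, and the number of arrays limits the precision.

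Probe sets were named through the platform annotation with symbols brought up to date from a RefSeq table, and those with several symbols were left out. The 6 groups came from the sample titles, and all 6 means were fitted in 1 limma model (limma 3.58.1, R 4.3.3) over 12252 genes. Adjusted p-values are two-sided Benjamini-Hochberg values over all of these, and a gene was called under 0.05. SEs rest on the spread shared by all groups. Replicate numbers follow the order of the title numbers and did not pair samples: of 45 pairs of arrays with the same number in different groups, 14 had deviations correlated above 0.1 (range -0.327 to 0.422). The members and lists were chosen with earlier results of these data known. All members were named, and from each list at most 3 genes called in oocyte removal without estrogen or in estrogen in intact complexes, by size. Alternatives were other filters and probe set rules, a second quantile normalization, array series and replicate number as terms, array weights, the array of conflicting labels moved, and each array left out. The fit was tested on simulated data.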

Additional observations from a re-analysis of the deposited data

Results flagged for a closer look

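The estrogen effect on Cemip and Vcan differed between kinds of culture by limma's interaction test. Set against its size in intact complexes, the log2 estrogen effect in oocyte-free complexes was lower by an interaction of -3.25 for Cemip and -1.86 for Vcan. Set against its size in oocyte-free complexes, the effect in cocultures was higher by 3.08 for Cemip and 1.78 for Vcan. These comparisons share the oocyte-free arrays. Of the 3 Vcan probe sets that passed the filter, 2 had a called interaction with removal and 1 with added oocytes. Without coculture replicate 2 the interaction with added oocytes was 3.29 for Cemip and 1.43 for Vcan, both called. Cemip lay below the array median on nearly all arrays with oocytes, so a lower value there could hardly have been seen. With the array of conflicting labels placed without estrogen, the 4 values were -1.90, -1.39, 1.73 and 1.31 and none was called (adjusted p 0.349 to 0.930).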

How the results depend on the processing

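Of 77 changes (7 genes in 11 comparisons), 27 were called, 24 of these kept the call with each array left out in turn, and 16 kept it under every alternative that could be run. None of the 27 changed sign under any alternative or with any array left out, while 17 of the 50 changes that were not called did so in at least 1 setting. The replicate block kept all 27 calls, with counts of called members of 5 and 5 for removal, 4 and 5 for added oocytes, 0 and 0 for cocultures against intact complexes, 0, 3 and 1 for estrogen in intact complexes, oocyte-free complexes and cocultures, and 2 and 2 for the interactions. The array of conflicting labels mattered most: with it moved, 9 of 27 calls were lost, and the counts were 0 for estrogen in oocyte-free complexes and 0 for both interactions. With the mean over the probe sets of a gene, by which 5 members passed the filter, the counts were 3 for removal with estrogen, 3 for added oocytes with estrogen, 1 for estrogen in oocyte-free complexes and 1 for each interaction. All 17 main calls of these 5 members were kept, and the counts were lower because Cd44 and Vcan no longer passed the filter. Estrogen in intact complexes gave 1 called member when the array series was a term, in the first series alone and with array weights, and 2 with only the groups of the comparison. With only those groups, estrogen gave 1 in oocyte-free complexes and 0 in cocultures. With single arrays left out, the counts ranged from 4 to 5 for removal and for added oocytes without estrogen, stayed at 5 for both with estrogen, at 0 for cocultures against intact complexes and at 2 for the interactions, and ranged from 0 to 1 for estrogen in intact complexes, 2 to 4 in oocyte-free complexes and 0 to 1 in cocultures.

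Over all tested genes, calls for estrogen in intact complexes were 709, against 1209 with a term for series, 1446 in the first series alone, 2215 with array weights, 1423 with only the compared groups and 448 with the array moved. For estrogen in oocyte-free complexes they were 1181, against 620, 2683, 209 and 0 with the series term, array weights, only the compared groups and the array moved. Low signal limits what can be said of Tnfaip6 and Ptx3, of Cemip in cultures with oocytes, and of Cd44 outside the oocyte-free complexes without estrogen.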
